A study of Mus musculus with 15 samples.

Results

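A set of 60 genes of the cell cycle was followed in the infarcted mouse heart. All 60 are present, once each, among the 54532 genes of the deposited table. They were chosen by name for their known roles in the G1/S transition, DNA replication or mitosis, with earlier results of these data known. They fall into 5 G1/S control genes, 15 replication genes and 40 mitotic genes, the last made up of 14 genes of mitotic control and 26 of the mitotic machinery. Poly-A RNA of the left ventricle was sequenced on day 8 after surgery in 5 libraries per group. The GSK group had the left descending coronary artery ligated permanently, as the treatment protocol implies, and was injected daily with GSK-343, an inhibitor of the histone methyltransferase EZH2, at 20 mg/kg in 20% Captisol. The MI group was ligated and received the 20% Captisol vehicle, and the Sham group, by its label not infarcted, received the same vehicle. Injections ran from 6 h after surgery until day 7, and all animals were female C57BL/6JRj mice aged 12 to 18 weeks. All 3 groups thus share surgery and the vehicle, and no group received GSK-343 without infarction. RNA of 2 animals was combined in each of Sham replicates 1 and 2, which averages part of the spread of the Sham group.

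A dividing cell passes a commitment step in G1, copies its DNA in S phase and separates the copies in mitosis. D-type and E-type cyclins with their kinases release E2F factors, which drive genes of DNA replication. Later, the MuvB complex with B-Myb and FOXM1 drives genes of G2 and mitosis, many of which carry CHR and CCAAT elements in their promoters. In the adult heart, cardiomyocytes rarely divide, and after infarction macrophages, fibroblasts and endothelial cells are known to proliferate in the injured ventricle. Messenger RNA of these genes does not show by itself that a cell divides. In bulk tissue, fewer cells of a type and less RNA per cell cannot be told apart.

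Replication and mitotic genes differed in the size of their difference after infarction, and promoters are shown here for members of both roles. They run from 250 bases before to 50 bases after the RefSeq gene start on GRCm38.p6. Capitals mark 3 kinds of motif searched on both strands: the CHR (TTTGAA or TTCGAA), the CCAAT box (CCAAT, read as ATTGG on the other strand) and E2F letters (TTTGGCGC, TTTCCCGC, TTCCCGCC or TTTCGCGC), of which the E2F strings can overlap one another.
Ccnb2 (chr9:70421505-70421804, minus strand): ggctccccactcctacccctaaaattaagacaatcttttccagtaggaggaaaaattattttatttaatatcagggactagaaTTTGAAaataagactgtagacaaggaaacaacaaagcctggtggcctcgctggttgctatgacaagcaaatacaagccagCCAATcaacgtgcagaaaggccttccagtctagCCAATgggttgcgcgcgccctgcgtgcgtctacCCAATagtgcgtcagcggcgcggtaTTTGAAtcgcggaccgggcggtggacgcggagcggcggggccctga
Cdc20 (chr4:118437294-118437593, minus strand): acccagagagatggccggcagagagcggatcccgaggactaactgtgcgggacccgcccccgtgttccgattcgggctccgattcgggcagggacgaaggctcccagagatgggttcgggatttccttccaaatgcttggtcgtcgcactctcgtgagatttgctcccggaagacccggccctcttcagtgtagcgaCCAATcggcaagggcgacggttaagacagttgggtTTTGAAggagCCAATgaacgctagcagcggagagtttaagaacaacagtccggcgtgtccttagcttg
Cdk1 (chr10:69352863-69353162, minus strand): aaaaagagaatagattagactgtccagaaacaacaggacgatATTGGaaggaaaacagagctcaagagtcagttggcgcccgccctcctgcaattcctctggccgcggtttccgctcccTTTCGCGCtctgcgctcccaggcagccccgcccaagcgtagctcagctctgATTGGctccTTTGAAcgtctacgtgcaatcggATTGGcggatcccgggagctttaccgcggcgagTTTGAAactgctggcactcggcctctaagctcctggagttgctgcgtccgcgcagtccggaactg
Mcm5 (chr8:75109259-75109558, plus strand): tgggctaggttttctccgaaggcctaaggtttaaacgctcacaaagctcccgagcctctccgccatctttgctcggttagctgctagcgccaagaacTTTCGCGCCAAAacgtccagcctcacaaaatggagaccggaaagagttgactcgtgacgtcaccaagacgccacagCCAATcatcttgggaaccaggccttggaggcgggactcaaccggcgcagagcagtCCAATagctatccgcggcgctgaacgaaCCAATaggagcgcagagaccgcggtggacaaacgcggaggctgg
Mcm6 (chr1:128359656-128359955, minus strand): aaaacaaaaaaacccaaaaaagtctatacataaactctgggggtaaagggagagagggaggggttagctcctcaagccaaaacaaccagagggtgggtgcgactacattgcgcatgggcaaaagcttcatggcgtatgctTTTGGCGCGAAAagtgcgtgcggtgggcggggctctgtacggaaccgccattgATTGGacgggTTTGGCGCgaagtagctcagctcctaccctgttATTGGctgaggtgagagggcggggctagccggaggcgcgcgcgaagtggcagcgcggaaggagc
Pcna (chr2:132253131-132253430, minus strand): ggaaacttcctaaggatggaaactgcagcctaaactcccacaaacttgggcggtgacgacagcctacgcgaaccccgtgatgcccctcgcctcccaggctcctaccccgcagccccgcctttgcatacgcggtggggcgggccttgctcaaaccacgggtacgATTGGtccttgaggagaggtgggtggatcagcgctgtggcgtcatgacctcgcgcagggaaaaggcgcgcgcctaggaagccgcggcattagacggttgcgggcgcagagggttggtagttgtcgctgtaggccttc
The first 3 are mitotic control genes. Ccnb2 held 2 CHR and 3 CCAAT matches, Cdc20 held 1 CHR and 2 CCAAT matches, and Cdk1 held 2 CHR, 3 CCAAT and 1 E2F match. The other 3 are replication genes: Mcm5 held 2 overlapping E2F and 3 CCAAT matches, Mcm6 held 3 E2F and 2 CCAAT matches, and Pcna held 1 CCAAT match. Ccnb1, another mitotic control gene, held 2 CCAAT matches and no CHR letters in its window, and Ccne1 held none of the strings.

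Promoters of 48 of the 60 members are in the RefSeq table, which covers 27025 genes. CHR letters were present in 25 of 32 mitotic members (78.1%) and 3 of 13 replication members (23.1%), and in 21.7% of all promoters in the table. E2F letters showed the reverse order, with 1 of 32 mitotic members (3.12%), 7 of 13 replication members (53.8%) and 4.0% of all promoters. CCAAT letters were present in 24 mitotic (75.0%) and 9 replication members (69.2%), and in 41.1% of all promoters. Among mitotic members, the median log2 difference of MI against Sham was 2.31 over the 25 with CHR letters and 2.05 over the 7 without. The ranges overlapped widely, from -1.20 to 3.11 with CHR letters and from 1.01 to 3.03 without. Matches are letters in a window and were not read as bound sites.

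Most members were weakly represented. FPKM counts fragments per kilobase of gene length, divided by a total for the library. Averaged over all libraries, 55 of 60 members lay under 5 FPKM. By group mean, 8 members were under 1 FPKM in GSK, 7 in MI and 43 in Sham, and the median member stood at 2.02 FPKM in GSK, 2.26 FPKM in MI and 0.482 FPKM in Sham. The fragments behind a value had a median of 211.5 in GSK, 241.5 in MI and 43 in Sham, and 12 members had under 10 fragments in at least 1 library. Between 21.5 M and 26.8 M fragments were assigned to genes per library, so that for a gene of 1 kb a lone fragment is worth 0.0357 to 0.0478 FPKM.

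Each gene was tested with limma on log2(FPKM + 0.1), over the 18737 genes that averaged 0.1 FPKM or more, all 60 members included, and called where the p adjusted by Benjamini-Hochberg was under 0.05. Cdc25c, Ttk and Bub1 averaged 0.0463, 0.0779 and 0.0947 FPKM in Sham, so they passed this filter only through GSK and MI. Genes of the other lists, such as Mcm10 at 0.0603 FPKM in Sham, did so too. The 3 members were also called higher in MI against Sham with no filter on low values. Log2 differences below are on that scale, with the SE after ±. The labels speak of independent mice, and p-values measure the spread between these libraries. All 10 cardiomyocyte markers looked up for the labelled tissue averaged above 1 FPKM, while 0 of 10 lymphocyte markers did. The summed FPKM of 10 macrophage markers ranged from 433 to 990 in GSK, 640 to 1079 in MI and 297 to 375 in Sham libraries. The 10 fibroblast markers summed to 1007 to 2046 FPKM in GSK, 1129 to 1994 in MI and 1001 to 1440 in Sham, and the 8 endothelial markers to 212 to 259 FPKM in GSK, 191 to 313 in MI and 190 to 209 in Sham. Gsn made up most of each fibroblast sum in Sham, at 740 to 1072 FPKM. It was at 344 to 749 FPKM in GSK and 178 to 437 FPKM in MI. The fibroblast sums thus do not stand for each of the other fibroblast markers, some of which overlapped too. Between MI and Sham, 5 of the 10 lay wholly above Sham, 1 wholly below and 4 overlapped. Of all genes, 13.1% lay wholly above and 11.2% wholly below. Between GSK and Sham, 4 of the 10 lay wholly above Sham and 6 overlapped, where 8.61% of all genes lay wholly above. In MI against Sham, 10 of 10 macrophage, 6 of 10 fibroblast and 2 of 8 endothelial markers were called higher, and 6 of 10 cardiomyocyte markers and 1 fibroblast marker, Gsn, lower, where 18.0% of all genes were called higher and 16.8% lower. The 7 neutrophil markers summed to 2.79 to 10.6 FPKM in GSK, 5.81 to 18.4 in MI and 4.15 to 6.93 in Sham, and 2 of them were called higher in MI against Sham. The part of these markers in the differences of the members was not tested. The share of FPKM on mitochondrially encoded genes was 31.8% to 48.7% in GSK, 23.2% to 40.6% in MI and 41.2% to 42.2% in Sham, with GSK replicates 3 and 4 and MI replicate 4 the highest of their groups at 46.4%, 48.7% and 40.6%.

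In MI against Sham, 57 of 60 members were called higher and 1 lower, and 2 were not called. Of all genes tested, 18.0% were called higher and 16.8% lower. The MI and Sham libraries did not overlap for 56 members, all higher in MI, where 13.1% of all genes lay wholly above and 11.2% wholly below Sham. The median log2 difference over the members was 2.02, beside -0.0071 over all genes tested. Mitotic members had the larger differences: 39 of 40 were called higher, and their median was 2.33, a median ratio of group means of 6.66. Of the replication members, 14 of 15 were called higher, with a median of 0.95 and a median ratio of 2.09. Of the G1/S control members, 4 of 5 were called higher, with a median of 0.73. Since 43 members lay under 1 FPKM in Sham, the pseudocount sets the size of the mitotic median: it was 1.10 with a pseudocount of 1 and 2.74 with 0.01, while the replication median was 0.64 with a pseudocount of 1. The mitotic median stood above the replication median under each of these.

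**Figure D1:**
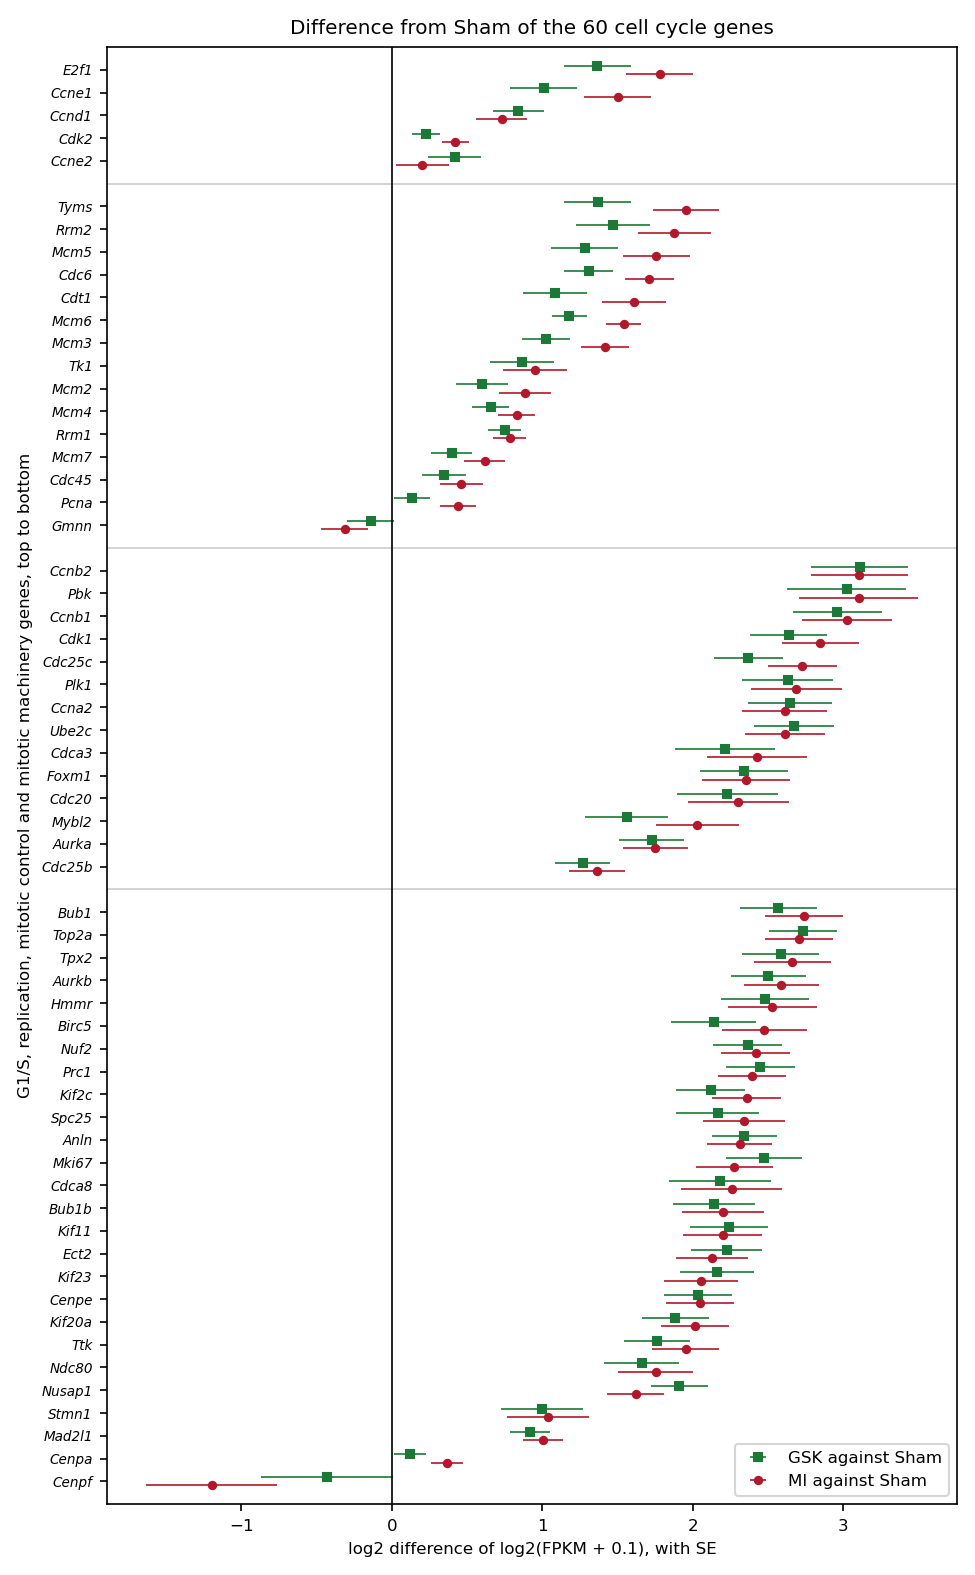
Log2 difference from Sham (x axis, log2(FPKM + 0.1), bars are SE) of the 60 members, in GSK (squares) and MI (circles), with G1/S control, replication, mitotic control and mitotic machinery genes from top to bottom. Mitotic genes centre on a median of 2.23 in GSK and 2.33 in MI, replication genes on 0.87 in GSK and 0.95 in MI. The mitotic gene Cenpf and the replication gene Gmnn lie left of 0 in both.

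All 14 mitotic control genes were called higher in MI against Sham, with a median log2 difference of 2.61. Ccnb2 (ENSMUSG00000032218, chr9:70407692-70421547, minus strand) encodes cyclin B2, a partner of the mitotic kinase, and had the highest log2 difference of all members on this scale, with Pbk next (3.10). By ratio of group means, Cdc25c, Bub1, Ccnb1 and Pbk were above it. Ccnb2 was at 4.74, 8.77, 3.53, 6.78 and 8.08 FPKM in GSK libraries, 8.07, 4.95, 5.48, 4.18 and 8.74 FPKM in MI libraries and 0.618, 0.656, 1.28, 0.554 and 0.273 FPKM in Sham libraries. Every MI library lay above every Sham library, and the log2 difference of MI against Sham was 3.11 ± 0.32, adjusted p = 1.81e-05, a ratio of means of 9.29. Ccnb1, which encodes cyclin B1, was at 1.66, 2.3, 0.862, 2.09 and 2.35 FPKM in GSK libraries, 2.47, 1.57, 1.67, 1.45 and 2.23 FPKM in MI libraries and 0.256, 0.124, 0.206, 0.0224 and 0.154 FPKM in Sham libraries. Its Sham values rest on 2 to 24 fragments per library, and its log2 difference was 3.03 ± 0.30, adjusted p = 1.40e-05. Cdk1, the kinase that both cyclins activate, was at 2.37, 2.73, 1.54, 2.2 and 3.44 FPKM in GSK libraries, 3.36, 2.35, 2.79, 1.72 and 4.25 FPKM in MI libraries and 0.247, 0.261, 0.564, 0.258 and 0.235 FPKM in Sham libraries. Sham replicate 3 held more than any other Sham library and still lay below the lowest MI library, and the log2 difference was 2.85 ± 0.26, adjusted p = 1.08e-05. Ccna2, whose product cyclin A2 acts in S phase and G2, was at 3.02, 4.33, 1.98, 4.06 and 4.71 FPKM in GSK libraries, 3.52, 2.87, 2.59, 3.29 and 5.1 FPKM in MI libraries and 0.519, 0.384, 0.995, 0.335 and 0.318 FPKM in Sham libraries, with a log2 difference of 2.61 ± 0.28, adjusted p = 2.32e-05.

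Cdc20, the activator of the anaphase-promoting complex, was at 4.1, 7.97, 2.85, 4.41 and 6.94 FPKM in GSK libraries, 8.23, 4.17, 4.41, 2.92 and 8.41 FPKM in MI libraries and 1.21, 0.839, 1.56, 0.555 and 0.944 FPKM in Sham libraries. The groups MI and Sham did not overlap, but MI libraries differed among themselves, with replicates 1 and 5 far above the other 3, and the log2 difference was 2.31 ± 0.34, adjusted p = 1.55e-04. Foxm1, the transcription factor of the G2/M programme, averaged 1.97 ± 0.434 FPKM in GSK, 2.05 ± 0.746 FPKM in MI and 0.336 ± 0.198 FPKM in Sham (SD, n = 5 each), with a log2 difference of 2.35 ± 0.29, adjusted p = 5.16e-05. Pbk, a mitotic kinase, was at 2.51, 3.94, 2.66, 4.21 and 4.38 FPKM in GSK libraries, 3.8, 2.53, 2.95, 3.74 and 6.08 FPKM in MI libraries and 0.428, 0.449, 0.739, 0.0263 and 0.414 FPKM in Sham libraries. Its lowest Sham value rests on 1 fragment, and the log2 difference was 3.10 ± 0.40, adjusted p = 6.27e-05. Cdc25c, a phosphatase that activates CDK1, had 17 to 47 fragments in GSK, 29 to 59 in MI and only 1 to 3 in Sham libraries. Its called difference, 2.73 ± 0.23, adjusted p = 5.84e-06, depends on the pseudocount, and no fold is given. The other genes of this role (Plk1, Ube2c, Cdca3, Mybl2, Aurka and Cdc25b) had log2 differences between 1.36 for Cdc25b and 2.69 for Plk1. Mybl2, which encodes B-Myb, had 2.03, and Aurka, a spindle pole kinase, had 1.75.

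Of the 26 genes of the mitotic machinery, 25 were called higher and 1 lower in MI against Sham, with a median log2 difference of 2.23. Mki67 (ENSMUSG00000031004, chr7:135689784-135716361, minus strand), whose product Ki-67 coats mitotic chromosomes and is used to mark proliferating cells, was at 3.26, 4.92, 2.9, 5.1 and 4.78 FPKM in GSK libraries, 4.78, 2.94, 3.01, 2.59 and 5.11 FPKM in MI libraries and 0.649, 0.635, 1.23, 0.469 and 0.48 FPKM in Sham libraries. The lowest MI library stood above the highest Sham library, and the log2 difference was 2.28 ± 0.25, adjusted p = 2.85e-05. Top2a, the topoisomerase that untangles sister chromosomes, was at 2.84, 3.91, 2.89, 4.71 and 4.19 FPKM in GSK libraries, 4.3, 3.0, 2.8, 3.13 and 5.13 FPKM in MI libraries and 0.475, 0.428, 0.846, 0.366 and 0.319 FPKM in Sham libraries, with a log2 difference of 2.71 ± 0.23, adjusted p = 5.84e-06. Bub1, a spindle checkpoint kinase, had the highest log2 difference of this role on this scale. It was at 0.628, 1.2, 0.887, 1.27 and 1.18 FPKM in GSK libraries, 1.41, 0.96, 0.754, 1.26 and 1.49 FPKM in MI libraries and 0.0828, 0.0739, 0.21, 0.0217 and 0.0852 FPKM in Sham libraries. Its Sham values rest on 2 to 20 fragments per library. Every MI library lay above every Sham library, and the log2 difference was 2.74 ± 0.26, adjusted p = 1.24e-05.

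Of the chromosomal passenger genes, Aurkb, the kinase of this complex, had a log2 difference of 2.59 ± 0.25, adjusted p = 1.40e-05, and Birc5, its subunit survivin, 2.48 ± 0.28, adjusted p = 2.98e-05. Aurkb averaged 1.89 ± 0.269 FPKM in GSK, 2.11 ± 0.851 FPKM in MI and 0.264 ± 0.116 FPKM in Sham (SD, n = 5 each). Bub1b, a checkpoint protein, had a log2 difference of 2.20 ± 0.27, adjusted p = 5.33e-05, and Kif11, the motor that separates spindle poles, 2.20 ± 0.26, adjusted p = 3.92e-05. The kinetochore genes Nuf2, Ndc80 and Spc25 had log2 differences of 2.42, 1.75 and 2.34. The cytokinesis genes Anln, Ect2, Prc1, Kif20a and Kif23 ranged from 2.02 for Kif20a to 2.40 for Prc1. Mad2l1, a checkpoint gene, and Stmn1, a regulator of microtubules, stood lower. Stmn1 was at 11.2, 15.5, 6.53, 9.3 and 13.5 FPKM in GSK libraries, 15.8, 8.23, 10.4, 6.34 and 19.2 FPKM in MI libraries and 5.18, 5.17, 6.18, 5.05 and 5.14 FPKM in Sham libraries. By group mean it had the highest FPKM of this role in MI, and its log2 difference was 1.04 ± 0.27, adjusted p = 0.00807. Mad2l1 had 1.01 ± 0.13, adjusted p = 7.43e-05. The remaining genes (Ttk, Kif2c, Cenpe, Nusap1, Tpx2, Hmmr and Cdca8) lay between 1.62 for Nusap1 and 2.66 for Tpx2, and Cenpa and Cenpf are described with the members that departed from the rest.

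**Figure D2:**
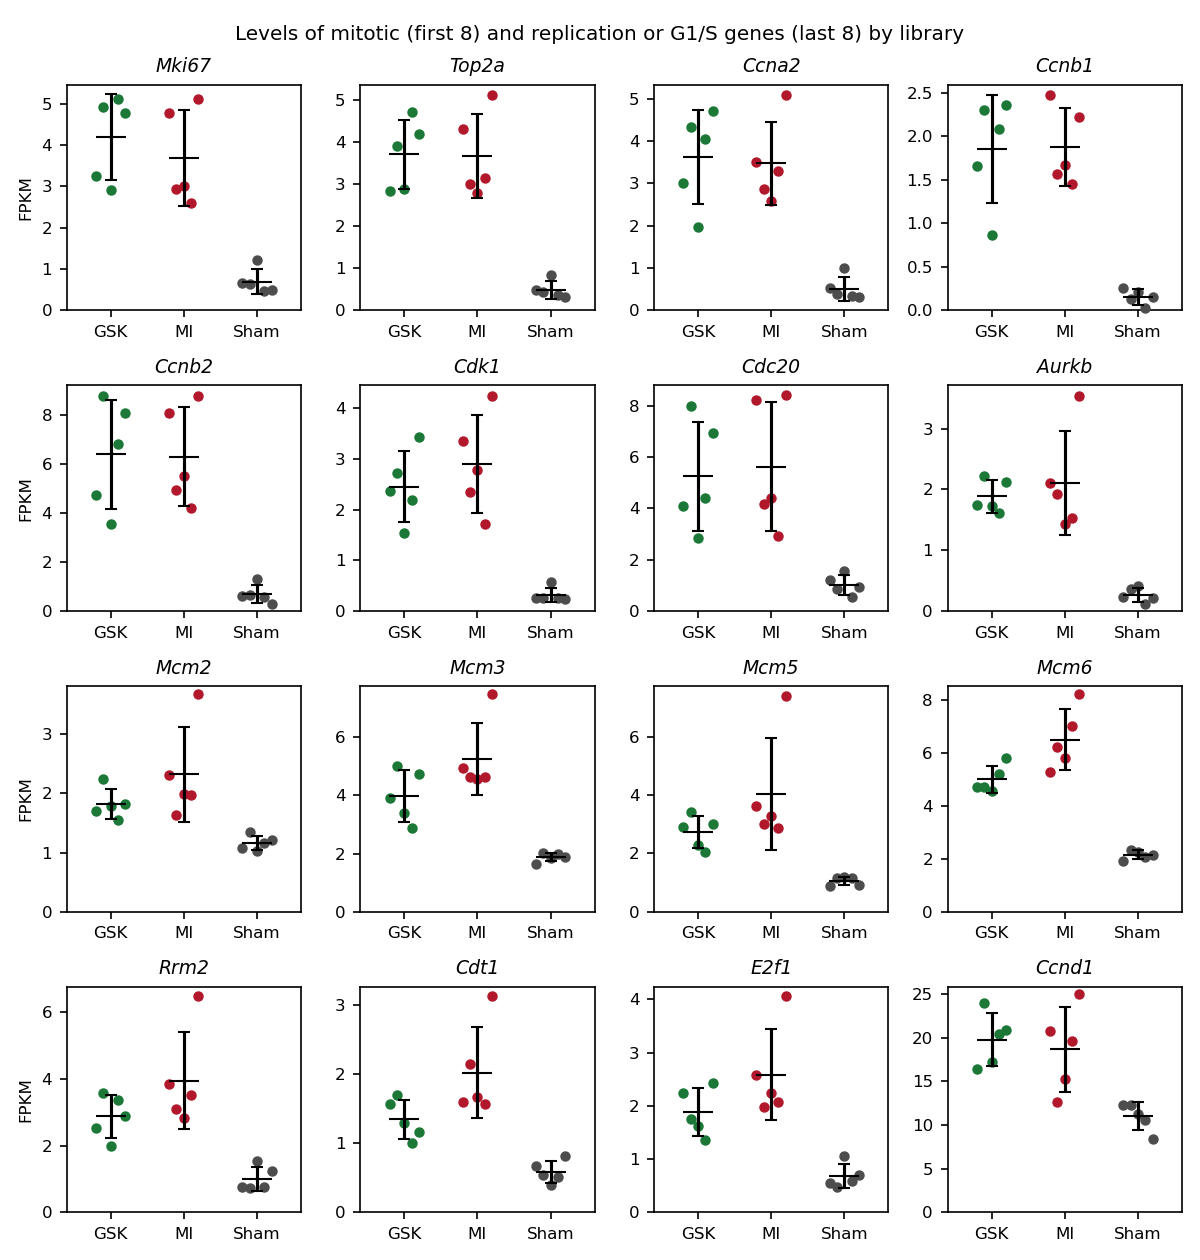
FPKM of 8 mitotic and 8 replication or G1/S members in each library (points), with the group mean and SD (bar), in GSK, MI and Sham from left to right. For the 8 mitotic genes no GSK or MI library reaches down to the Sham values, and in the replication and G1/S genes MI replicate 5, the rightmost MI point, is the highest.

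Replication members had smaller differences. The MCM genes encode the subunits of the replicative helicase, and all 6 of those measured were called higher in MI against Sham. Mcm6 (ENSMUSG00000026355, chr1:128331590-128359664, minus strand) was at 4.72, 4.73, 4.57, 5.23 and 5.81 FPKM in GSK libraries, 5.28, 6.22, 5.82, 7.02 and 8.23 FPKM in MI libraries and 1.91, 2.35, 2.27, 2.08 and 2.14 FPKM in Sham libraries. Its libraries varied little within Sham, every MI value lay above them, and the log2 difference was 1.54 ± 0.11, adjusted p = 3.42e-06, the lowest adjusted p of any member. Mcm5 was at 2.91, 3.41, 2.3, 2.05 and 3.01 FPKM in GSK libraries, 3.65, 3.01, 3.3, 2.86 and 7.43 FPKM in MI libraries and 0.88, 1.15, 1.19, 1.16 and 0.906 FPKM in Sham libraries. MI replicate 5 held more than any other library, and the log2 difference was 1.76 ± 0.22, adjusted p = 5.63e-05. Mcm3 had 1.42 ± 0.16, adjusted p = 2.94e-05. The differences of Mcm2 (0.89 ± 0.17, adjusted p = 0.00122), Mcm4 (0.83 ± 0.12, adjusted p = 1.70e-04) and Mcm7 (0.62 ± 0.14, adjusted p = 0.00261) were smaller, so that subunits of 1 complex spanned 0.62 to 1.76.

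Of the members that act in helicase loading and nucleotide supply, Cdt1, a licensing factor, was at 1.57, 1.7, 1.29, 1.01 and 1.17 FPKM in GSK libraries, 1.59, 2.15, 1.67, 1.57 and 3.12 FPKM in MI libraries and 0.674, 0.538, 0.393, 0.511 and 0.813 FPKM in Sham libraries. The MI and Sham libraries did not overlap, and the log2 difference was 1.61 ± 0.21, adjusted p = 7.52e-05. Cdc6, which acts beside CDT1, had 1.71 ± 0.16, adjusted p = 1.32e-05. Rrm2, the regulatory subunit of ribonucleotide reductase, was at 2.54, 3.59, 2.0, 3.36 and 2.9 FPKM in GSK libraries, 3.84, 3.09, 2.83, 3.52 and 6.47 FPKM in MI libraries and 0.748, 0.725, 1.53, 0.749 and 1.24 FPKM in Sham libraries. All MI libraries lay above Sham, and its log2 difference was 1.88 ± 0.24, adjusted p = 7.12e-05. The catalytic subunit Rrm1 had 0.78 ± 0.11, adjusted p = 1.28e-04. Tyms, thymidylate synthase, had the highest log2 difference among replication members on this scale (1.96 ± 0.22, adjusted p = 3.02e-05), though by ratio of group means Cdc6 was above it (4.83 for Cdc6 and 4.51 for Tyms), and Tk1, thymidine kinase, had 0.95 ± 0.21, adjusted p = 0.00304. Cdc45, a helicase cofactor, averaged 1.3 ± 0.157 FPKM in GSK, 1.43 ± 0.331 FPKM in MI and 1.0 ± 0.134 FPKM in Sham (SD, n = 5 each). Its log2 difference of 0.46 ± 0.14, adjusted p = 0.0219 was no longer called without Sham replicate 1 (0.38, adjusted p = 0.0594), without Sham replicates 1 and 2 together (0.35, adjusted p = 0.129) or with quantile normalization (0.38, adjusted p = 0.0776).

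Among the G1/S control genes, Ccnd1, which encodes cyclin D1 and answers to growth signals, was far more abundant than the E-type cyclins. It was at 16.4, 24, 17.2, 20.5 and 20.9 FPKM in GSK libraries, 20.8, 12.6, 15.3, 19.6 and 25 FPKM in MI libraries and 12.3, 12.3, 11.3, 10.6 and 8.44 FPKM in Sham libraries. Every MI library stood above Sham by a small margin, and the log2 difference was 0.73 ± 0.17, adjusted p = 0.0038. Ccne1, cyclin E1, was at 0.768, 0.693, 0.734, 0.665 and 0.873 FPKM in GSK libraries, 0.937, 1.11, 0.74, 1.02 and 1.88 FPKM in MI libraries and 0.237, 0.257, 0.394, 0.531 and 0.244 FPKM in Sham libraries, with a log2 difference of 1.5 ± 0.22, adjusted p = 1.86e-04. E2f1, an activating E2F factor, was at 2.24, 1.76, 1.63, 1.36 and 2.44 FPKM in GSK libraries, 2.57, 1.97, 2.24, 2.08 and 4.06 FPKM in MI libraries and 0.557, 0.472, 1.06, 0.598 and 0.706 FPKM in Sham libraries. Its log2 difference was 1.78 ± 0.22, adjusted p = 5.51e-05, the largest of the G1/S genes.

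The members with the lowest signed log2 differences were Cenpf and Gmnn, both negative, then Ccne2, Cenpa and Cdk2, with Pcna next to them. Gmnn (ENSMUSG00000006715, chr13:24751845-24761923, minus strand) encodes geminin, which inhibits CDT1, and was at 18.3, 22.3, 14.6, 19.1 and 18 FPKM in GSK libraries, 16.4, 10.7, 16.6, 18.4 and 21.1 FPKM in MI libraries and 19.7, 22.5, 17.2, 21 and 20.9 FPKM in Sham libraries. The 3 groups overlapped, and the log2 difference of MI against Sham was -0.31 ± 0.15, adjusted p = 0.131. It was called lower only without MI replicate 5 (-0.41, adjusted p = 0.0498). Ccne2, cyclin E2, was at 1.2, 0.948, 1.51, 1.57 and 1.06 FPKM in GSK libraries, 0.724, 1.06, 0.897, 1.31 and 1.4 FPKM in MI libraries and 0.864, 1.01, 0.901, 0.782 and 0.956 FPKM in Sham libraries, and the groups overlapped (0.20 ± 0.18, adjusted p = 0.397). Cdk2, the kinase partner of cyclin E, was at 2.53, 2.23, 2.7, 2.37 and 2.33 FPKM in GSK libraries, 2.92, 2.58, 3.1, 2.54 and 2.86 FPKM in MI libraries and 2.05, 2.17, 1.86, 1.95 and 2.28 FPKM in Sham libraries. Its MI libraries lay above Sham by a small margin (0.42 ± 0.09, adjusted p = 0.00232).

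Cenpa, the histone variant that marks centromeres, was at 6.87, 7.51, 5.56, 6.82 and 7.45 FPKM in GSK libraries, 9.28, 7.42, 8.26, 6.62 and 9.15 FPKM in MI libraries and 5.93, 6.72, 6.0, 6.61 and 6.02 FPKM in Sham libraries. Its MI and Sham libraries overlapped, although it was called higher (0.37 ± 0.11, adjusted p = 0.0143). Pcna (ENSMUSG00000027342, chr2:132249162-132253314, minus strand), the sliding clamp of DNA polymerase, was at 15.8, 17.8, 14, 13.5 and 15.4 FPKM in GSK libraries, 15.7, 18.9, 17.1, 17.9 and 25.7 FPKM in MI libraries and 12.2, 13.7, 13.6, 14.6 and 15.3 FPKM in Sham libraries. MI libraries lay just above Sham (0.44 ± 0.12, adjusted p = 0.0105), and without the mixed Sham replicates 1 and 2 the call was lost (0.37, adjusted p = 0.0709). Cenpa, Gmnn and Pcna were also among the most abundant members in Sham, at 6.25 ± 0.376, 20.2 ± 1.99 and 13.9 ± 1.15 FPKM (SD, n = 5 each).

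Cenpf (ENSMUSG00000026605, chr1:189640606-189688086, minus strand), which encodes a large kinetochore protein, was the only member called lower in MI against Sham. It was at 1.35, 1.68, 1.31, 1.76 and 1.19 FPKM in GSK libraries, 1.33, 0.502, 0.687, 0.601 and 1.19 FPKM in MI libraries and 0.768, 0.818, 3.59, 2.36 and 5.25 FPKM in Sham libraries. Sham replicates 3, 4 and 5 were the highest of all libraries, the mixed Sham replicates 1 and 2 were within the range of the MI libraries, and the groups overlapped. The log2 difference was -1.20 ± 0.44, adjusted p = 0.045. The call was lost without any 1 of MI replicates 2, 3 or 4, Sham replicates 3, 4 or 5, or any GSK replicate (adjusted p = 0.0528 to 0.12). With both mixed Sham libraries left out it was -2.01. Cenpf also did not follow the other mitotic genes within Sham: it was highest in Sham replicate 5, where Mki67 stood at 0.48 FPKM, while Mki67 was highest in Sham replicate 3 at 1.23 FPKM.

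**Figure D3:**
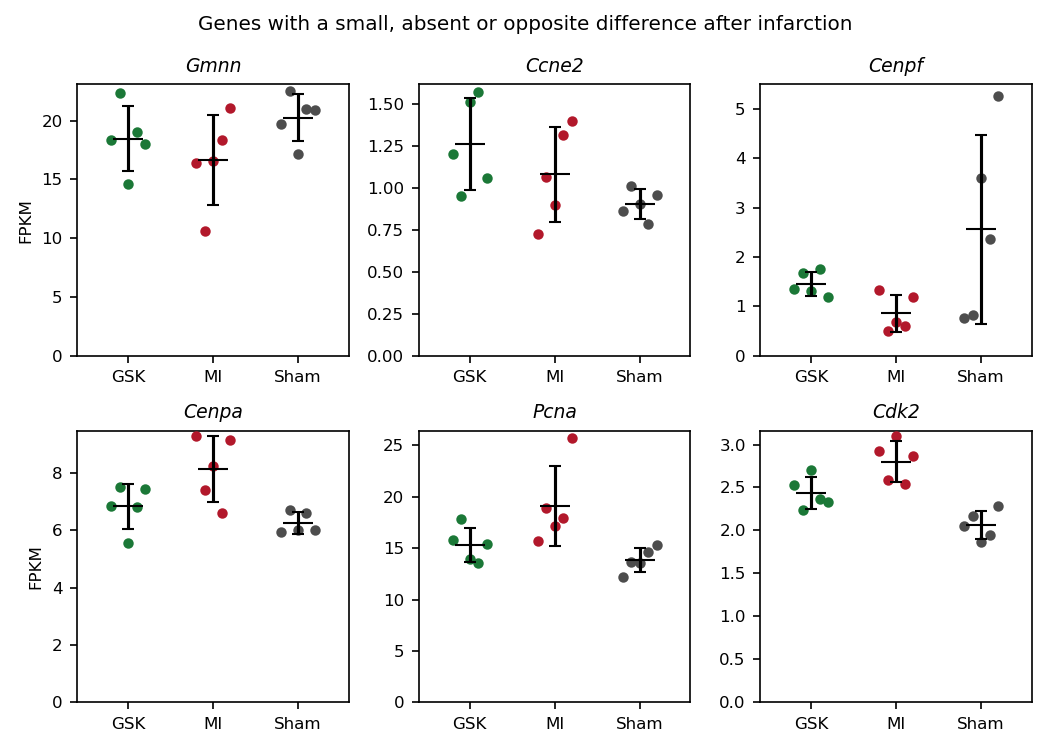
FPKM by library (points) with the group mean and SD (bar) for Gmnn, Ccne2, Cenpf, Cenpa, Pcna and Cdk2, in GSK, MI and Sham from left to right. MI and Sham libraries overlap for Gmnn, Ccne2, Cenpa and Cenpf, GSK and Sham libraries overlap for all 6 genes, and 3 Sham libraries of Cenpf, at 2.36 to 5.25 FPKM, lie above all others.

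Further genes of the same processes, listed for their known roles, gave the same order. These lists, like the members, were chosen with earlier results of these data known, so the order is not separate support. Of 67 other mitosis genes, 54 were called higher and 2 lower in MI against Sham, with a median log2 difference of 1.49. Of 43 other replication genes, 25 were higher and 3 lower, with a median of 0.48. Of 24 other G1/S and pocket protein genes, 10 were higher and 5 lower, with a median of 0.24. Of all genes tested, 18.0% were called higher and 16.8% lower, and the share of the other G1/S genes called lower is near that of all genes. The 4 genes of highest mean FPKM in each list did not all rise. Among the mitosis genes, Tubb5, a tubulin, was called higher (1.21 ± 0.14, adjusted p = 3.17e-05), and Kpna2, a nuclear importin, was too (0.54 ± 0.13, adjusted p = 0.00432). Pttg1, securin, was called lower (-0.82 ± 0.16, adjusted p = 0.00101), and H2afz, a histone variant, was not called (0.43 ± 0.17, adjusted p = 0.0542). Among the replication genes, Dut, the dUTP pyrophosphatase (-0.76 ± 0.15, adjusted p = 0.00147), and Rpa1, a single-strand binding protein (-0.39 ± 0.11, adjusted p = 0.0105), were called lower. Pold2, a DNA polymerase delta subunit (-0.13 ± 0.16, adjusted p = 0.574), and Gins4, of the replicative helicase (0.20 ± 0.08, adjusted p = 0.0627), were not called. Among the G1/S genes, Cdk4, the partner of D-type cyclins, was called higher (0.43 ± 0.10, adjusted p = 0.00292). E2f6, a repressive E2F factor (-0.61 ± 0.16, adjusted p = 0.00830), and Ccnd2, cyclin D2 (-0.32 ± 0.11, adjusted p = 0.0409), were called lower, and E2f4, another E2F factor, was not called (0.14 ± 0.08, adjusted p = 0.189).

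In GSK against MI, which asks whether GSK-343 changed these genes in the infarcted heart, no member was called in either direction. No gene was called at all by limma, 0% higher and 0% lower, and limma-voom on recovered fragments also called none. At an unadjusted p under 0.05, 9.11% of all genes were higher and 8.57% lower, and 0.982% lay wholly above and 0.806% wholly below MI without overlap. No member had unadjusted p under 0.05 in the higher direction, 10 had it in the lower direction, and all 60 overlapped between GSK and MI. The median log2 difference was -0.30 over the replication members, -0.19 over the G1/S control members and -0.062 over the mitotic members, beside -0.0022 over all genes. Of the 15 replication members, 14 had a negative value and 7 had an unadjusted p under 0.05. Of the 40 mitotic members, 28 had a negative value and 1, Cenpa, had an unadjusted p under 0.05.

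Mcm6 had the lowest p of the members in GSK against MI. Its levels, given above, averaged 5.01 ± 0.511 FPKM in GSK and 6.51 ± 1.15 FPKM in MI (SD, n = 5 each), a log2 difference of -0.36 ± 0.11 with an unadjusted p = 0.00644 and an adjusted p = 0.155 in limma. Tyms had -0.59 ± 0.22, adjusted p = 0.20, Pcna -0.30 ± 0.12, adjusted p = 0.217, Cdt1 -0.53 ± 0.21, adjusted p = 0.219 and Cdc6 -0.40 ± 0.16, adjusted p = 0.223. In each of the 5, GSK and MI libraries overlapped. Of the mitotic genes, Ccnb2 averaged 6.38 ± 2.21 FPKM in GSK and 6.28 ± 2.01 FPKM in MI (0.00 ± 0.32, adjusted p = 0.999), and Mki67 averaged 4.19 ± 1.03 FPKM in GSK and 3.69 ± 1.17 FPKM in MI (0.20 ± 0.25, adjusted p = 0.71). Cenpf had the largest positive value (0.77 ± 0.44, adjusted p = 0.367).

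These counts depended on which libraries were kept. MI replicate 5 was the highest MI library for 15 of 15 replication members and for 31 of 40 mitotic members, and the highest of all 15 libraries for 14 and 27 of them. Without it, 11 of 15 replication members had a negative value in GSK against MI, 1 had an unadjusted p under 0.05, and their median was -0.19; 13 of 40 mitotic members were negative. The count of replication members with an unadjusted p under 0.05 was 2 without GSK replicate 3, 3 without GSK replicate 4, 4 without GSK replicate 5, and 8 without MI replicate 2 or without MI replicate 4. It was 1 with MI replicate 4 and GSK replicates 3 and 4 left out together, where 13 of 15 had a negative value. GSK replicate 3 was the lowest GSK library for 28 of 40 mitotic members, and without it 15 of the 40 were negative, as were 15 without MI replicate 1. MI replicate 4 was the lowest MI library for 23 of 40 mitotic members. GSK replicate 3 and MI replicate 4 are also libraries of high mitochondrial share. GSK replicate 4, with the highest share at 48.7%, was the lowest GSK library for 1 of 40 mitotic members and the highest for 11. The macrophage marker sum of MI replicate 5, 640 FPKM, was the lowest of the MI group. All 10 macrophage markers had a negative value in GSK against MI, 0 of them called and 4 with an unadjusted p under 0.05. The part of these differences in the values of the members was not tested.

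**Figure D4:**
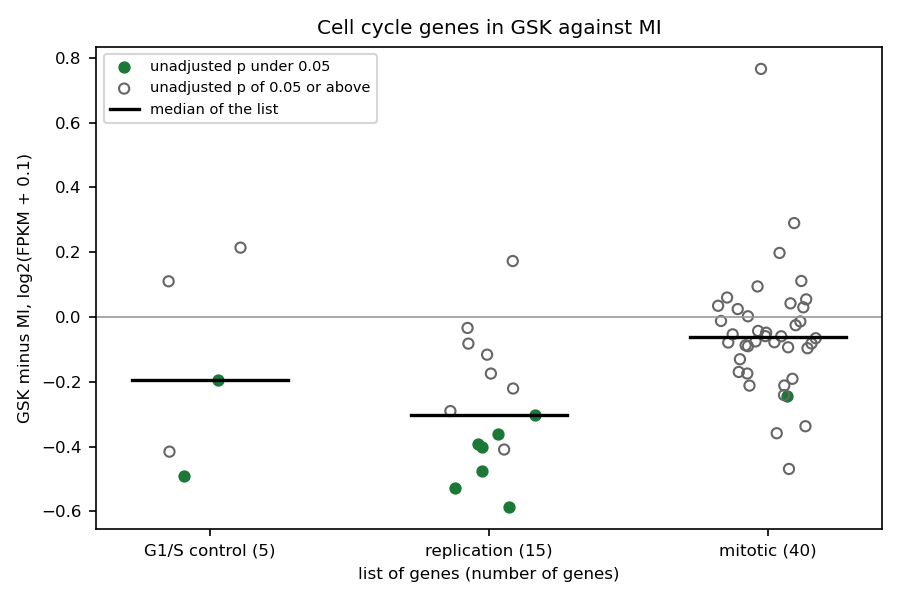
Log2 difference of GSK minus MI for each member (points), by list, with the median of each list (line) and filled points for an unadjusted p under 0.05. The medians are -0.19 for G1/S control, -0.30 for replication and -0.062 for mitotic genes, and no point passes the adjusted threshold.

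In GSK against Sham, 52 of 60 members were called higher and 0 lower (also 0 by voom and at an unadjusted p under 0.05), with a median log2 difference of 1.90 beside -0.014 over all genes. Of all genes tested, 8.52% were called higher and 4.46% lower. The GSK libraries lay wholly above Sham for 54 members, where 8.61% of all genes did so and 5.95% lay wholly below. This comparison shares the Sham libraries with MI against Sham and the GSK libraries with GSK against MI, so the values are given side by side and not as separate support. Of the mitotic members, 38 of 40 were called higher, with a median of 2.23; of the replication members, 11 of 15, with a median of 0.87; of the G1/S control members, 3 of 5, with a median of 0.84. Ccnb2 had 3.11 ± 0.32, adjusted p = 3.80e-05, Top2a 2.73 ± 0.23, adjusted p = 2.16e-05 and Mki67 2.48 ± 0.25, adjusted p = 3.62e-05. Mcm6 had 1.18 ± 0.11, adjusted p = 3.03e-05, beside 1.54 in MI against Sham.

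The 8 members not called in GSK against Sham were Ccne2, Cdk2, Cdc45, Gmnn, Mcm7, Pcna, Cenpa and Cenpf. Pcna averaged 15.3 ± 1.7 FPKM in GSK and 13.9 ± 1.15 FPKM in Sham (SD, n = 5 each), with overlapping libraries and a log2 difference of 0.14 ± 0.12, adjusted p = 0.478. Mcm7 did not overlap but missed the threshold (0.40 ± 0.14, adjusted p = 0.0647), and it was called in 4 of 28 alternative settings. These were without MI replicate 5 (adjusted p = 0.0256) and with only the 2 groups compared (adjusted p = 0.0164). Another was at least 1 FPKM in at least 5 libraries (adjusted p = 0.0487). The last left out mitochondrially encoded genes and made library totals equal (adjusted p = 0.0107). Cenpf had -0.43 ± 0.44, adjusted p = 0.551 and was called lower only without Sham replicates 1 and 2 (-1.24, adjusted p = 0.0267). The calls of Mcm2 (0.60 ± 0.17, adjusted p = 0.0351) and Stmn1 (1.00 ± 0.27, adjusted p = 0.0269) were lost in 15 of 28 alternative settings for Mcm2 and 9 for Stmn1. Leaving out any 1 of GSK replicates 1, 2, 3 or 5 or Sham replicates 1, 3, 4 or 5 ended the Mcm2 call, and any 1 of GSK replicates 1, 2 or 5 or Sham replicates 1, 2, 4 or 5 ended the Stmn1 call. Without Sham replicates 1 and 2, the calls of Ccne1 (adjusted p = 0.0685) and Tk1 (adjusted p = 0.0796) were lost too. Of the other mitosis, replication and G1/S genes, 51 of 67, 17 of 43 and 6 of 24 were called higher in GSK against Sham, and 1, 1 and 0 lower.

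Set library by library, the median replication member stood at 2.91, 3.41, 2.30, 2.88 and 3.01 FPKM in GSK, 3.65, 3.01, 2.93, 3.52 and 5.82 FPKM in MI and 1.16, 1.34, 1.53, 1.46 and 1.24 FPKM in Sham libraries. The median mitotic member stood at 1.64, 2.31, 1.38, 2.01 and 2.34 FPKM in GSK, 2.47, 1.61, 1.68, 1.46 and 2.91 FPKM in MI and 0.391, 0.353, 0.556, 0.262 and 0.226 FPKM in Sham libraries. All 10 libraries of GSK and MI lay above all 5 of Sham in both measures. Relative to the Sham mean of each gene, mitotic medians spread from 1.77 to 2.63 log2 units in GSK and 1.88 to 2.87 in MI, and replication medians from 0.72 to 1.07 in GSK and 0.78 to 1.61 in MI. Within Sham, replicate 3 had the highest value for 32 of 40 mitotic members and for 4 of 15 replication members. That library also had the highest macrophage and fibroblast marker sums of the Sham group, 375 and 1440 FPKM. Gsn alone gave 1072 FPKM of the fibroblast sum. The part of these markers in its mitotic values was not tested.

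**Figure D5:**
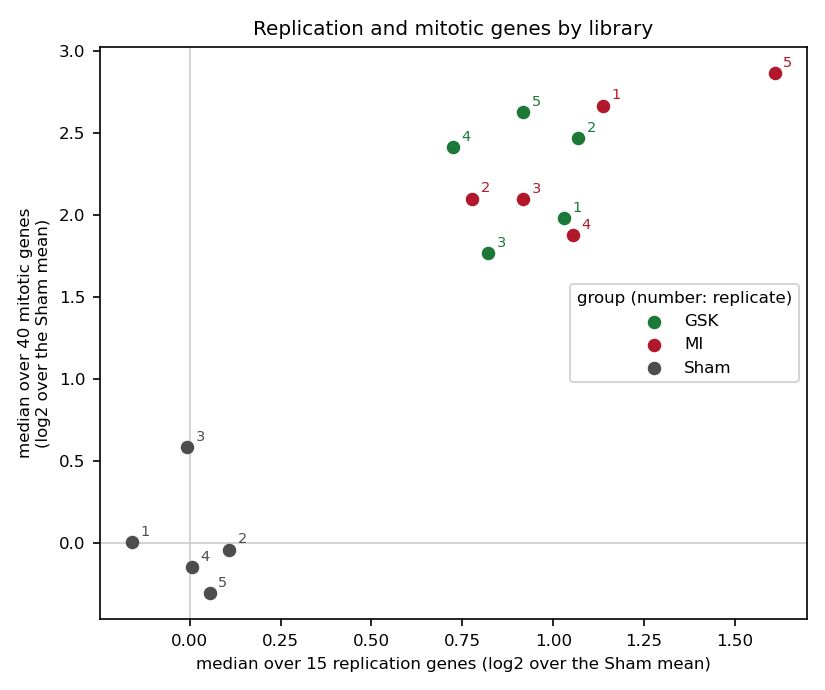
Median over the 15 replication members (x axis) and the 40 mitotic members (y axis) of the log2 value relative to the Sham mean, 1 point per library, numbered by replicate. GSK and MI libraries lie apart from Sham on both axes, MI replicate 5 is farthest out at 1.61 and 2.87, and Sham replicate 3 stands above the other Sham libraries at 0.58 on the mitotic axis.

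The counting could have mixed reads for some members. Exons of 19 members overlap another annotated gene, with over 10% of exon bases for Ccnd1, Ccne2, Mcm7, Ccna2, Cdc25c, Ube2c, Kif20a and Prc1, and the strand setting of the counting is not given in the sources used here. Ube2c shares 22.8% of its exon bases with Tnnc2 on the opposite strand, and its level is uncertain. Pseudogenes named for a member exist for 12 members. The highest of these, AC151284.1, is named for Ube2c and averaged 5.03 FPKM over all libraries, beside 2.80 FPKM for Ube2c itself.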

How the data were processed

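Left ventricle poly-A libraries of 15 samples, 5 per group, were read as paired ends of 150 nt. The authors deposited FPKM per gene in 1 table; the submitters' processing notes name the build mm10 and, with no role given, R 3.5.1, DESeq2, featureCounts, Subread and HISAT2. Values times gene length were whole multiples of a library step for 100% of values (tolerance 0.01), which gave the assigned fragments. The scaling totals equal median-of-ratios factors (r = 1), not fragment totals (r = 0.611), so differences are relative to the typical gene of a library.

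Here, log2(FPKM + 0.1) of the 18737 genes averaging 0.1 FPKM or more was fitted in R 4.3.3 by lmFit, contrasts.fit and eBayes (with a trend) of limma 3.58.1, in 1 model of 3 group means over all 15 libraries. Adjusted p-values are Benjamini-Hochberg over all genes tested. A pseudocount of 1 with a filter of at least 1 FPKM in at least 5 libraries was kept as an alternative, since 43 members lay under 1 FPKM in Sham and some would enter only through the groups in which they are high. Under the filter of 0.1 FPKM, the members Cdc25c, Ttk and Bub1 entered in this way. The fold changes of low genes are understated on this scale. The fit was tried on simulated fragments with 1 spread for all genes and no shifts shared by genes within a library. These data hold such shifts, so the simulation does not gauge the calls here. Members and lists were chosen with earlier results of these data known. Genes described singly are a set named by role, the 5 highest and 5 lowest signed differences in MI against Sham, all not called higher there and the 5 of lowest p in GSK against MI; from the other cell cycle lists, the 4 of highest mean FPKM. The Cdc45, Pcna, Mcm7 and Stmn1 calls discussed for their settings, and the library counts, were chosen after their values were seen. Promoters are from the RefSeq table on GRCm38.p6. There were 28 alternatives.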

Additional observations from a re-analysis of the deposited data

Results flagged for a closer look

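Of 180 groups of 5 libraries, 1 per member and group, 14 held a library far from the other 4 by the gap between it and its nearest neighbour relative to the whole range. The cutoff used flags about 1 in 20 groups of independent, normally distributed values. Members share their libraries and FPKM was not logged here, so the chance rate for these groups is not known. In all 14 the library was the highest of its group, and they fall in 3 libraries.

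In MI replicate 5, 7 members stood apart. Mcm3 was at 7.47 FPKM there and at 4.57 to 4.95 FPKM in the other MI libraries, Mcm5 at 7.43 against 2.86 to 3.65, Rrm2 at 6.47 against 2.83 to 3.84 and Cdc45 at 2.01 against 1.18 to 1.33 FPKM. E2f1 was at 4.06 FPKM against 1.97 to 2.57, Mad2l1 at 1.39 against 0.976 to 1.09 and Ttk at 0.844 against 0.486 to 0.581 FPKM.

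In Sham replicate 3, 6 mitotic members stood apart: Mki67 at 1.23 FPKM against 0.469 to 0.649 in the other Sham libraries, Cdk1 at 0.564 against 0.235 to 0.261, Birc5 at 0.51 against 0.191 to 0.248, Kif23 at 0.433 against 0.167 to 0.234, Ect2 at 0.432 against 0.129 to 0.201 and Stmn1 at 6.18 against 5.05 to 5.18 FPKM. Plk1 was at 0.451 FPKM in Sham replicate 1 and at 0.291 to 0.316 FPKM in the others.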

How the results depend on the processing

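No call reversed its direction in any of 28 alternatives. The mitotic median in GSK against MI, -0.062, ranged from -0.146 to 0.106 when 1 library was left out, positive without GSK replicate 3, MI replicate 1 or MI replicate 5. In MI against Sham, 49 to 57 members were called higher over the 13 other settings and 56 to 57 over the 15 that leave out 1 library, and 56 of 60 members kept their call in all that gave a value. In GSK against Sham these counts were 44 to 55 and 50 to 53, and 52 of 60 kept their call. Settings that need at least 1 FPKM in at least 5 libraries tested only 52 of the 60 members. Counts there can thus be lower without a lost call. In GSK against MI, 0 members were called in any setting, although genes outside the set were, such as 136 higher and 110 lower without MI replicate 1.

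The count of members called lower in MI against Sham, 1 (Cenpf), was 0 with no filter on low values, with mitochondrially encoded genes left out, with only the 2 groups compared, with a replicate block, with MI replicate 4 and GSK replicates 3 and 4 left out and with GSK replicates 1 and 2 left out, and 0 to 2 when 1 library was left out. In GSK against Sham it was 1 with the mixed Sham libraries left out. With a pseudocount of 1, the replication and mitotic medians were 0.55 and 1.01 in GSK against Sham and 0.64 and 1.10 in MI against Sham; adding the stricter filter they were 0.56 and 1.12, and 0.66 and 1.18. Mitotic medians in GSK against Sham and MI against Sham were 2.65 and 2.74 with a pseudocount of 0.01, and 2.67 and 2.79 with voom. With MI replicate 4 and GSK replicates 3 and 4 left out, the replication median in GSK against Sham was 1.15. A smaller pseudocount raises low genes by construction; other causes were not tested.

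The setting that left out mitochondrially encoded genes also scaled the remaining FPKM to an equal total in every library. Both changes enter its values. The median of all genes moved to 0.082 in MI against Sham and 0.108 in GSK against Sham. Of the calls in MI against Sham, 63.8% were higher, against 51.7% in the main setting. The shares in GSK against Sham were 85.0% and 65.7%. Mcm7, Cdk2 and Cdc45 were then called higher in GSK against Sham.

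Equal replicate numbers do not pair the libraries by the labels, and same-numbered deviations correlated at -0.188 to 0.222. With the replicate block, 51 members were higher in GSK against Sham (52 without it). Depth limits the members near 1 FPKM or less in Sham, whose values rest on few fragments.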
